A study of Danio rerio with 8 samples.

Results

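Genes that regulate the formation of definitive blood progenitors were followed here, namely runx1, cbfb, myb, ikzf1 and hhex. They were taken as the probe sets of the array whose only gene symbol in the platform annotation is one of these names, which gave 1 probe set for each of the 5 genes, or 5 of 15502 probe sets other than controls. Cells of zebrafish embryos carrying cd41-GFP on the AB background were sorted by GFP fluorescence 35 hours after fertilization, which gave the GFP-positive and GFP-negative fractions compared here. Each fraction had 4 arrays, numbered here as pairs 1 to 4, and the RNA had 2 rounds of linear amplification before hybridisation to an Affymetrix zebrafish array. All embryos carried the transgene, in which green fluorescent protein is driven by the cd41 (itga2b) promoter, which is active in thrombocytes and in early blood stem and progenitor cells. The GFP-negative fraction is therefore the rest of the embryo, blood cells without GFP included. No label ties the pairs to separate clutches or days, so a p-value here reflects only the scatter among these arrays, part or all of which may be technical.

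Definitive blood stem cells arise from the endothelium of the dorsal aorta, and in the zebrafish this depends on Runx1. Runx1 is the DNA-binding subunit of core-binding factor and Cbfb is the partner that binds no DNA but stabilises the complex. Myb is needed for the progenitors once they have formed, Ikaros (ikzf1) is a zinc finger protein of lymphoid development, and the homeodomain protein Hhex acts in blood and vessel precursors as well as in liver, pancreas and thyroid.

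Of the 5 genes, hhex alone passed the test, where 12.99% of all tested probe sets were called higher. Its log2 signal was higher by 1.14 in the GFP-positive fraction, and every GFP-positive array lay above every GFP-negative one. The fitted differences of the other genes were also above 0, but those of myb and ikzf1 did not pass, and runx1 and cbfb never reached the 40th percentile of their array on any of the 8. Of the 20 differences within pairs, 18 were above 0, the exceptions being runx1 in pair 4 and ikzf1 in pair 1. These 20 differences are not independent, since the 5 genes share the same 4 pairs of arrays. Over all 9801 tested probe sets, which leave out runx1 and cbfb, 4079 to 4578 were higher in the single pairs. Dim probe sets such as those of runx1 and cbfb leaned above 0 as a class, as given below.

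The arrays themselves differed in ways that touch these values. Median signals ran from 275 to 421. The array of GFP-positive replicate 3 was close to the GFP-negative arrays, with a mean correlation across probe sets of 0.79 with them against 0.53 to 0.64 for the other GFP-positive arrays. The array of GFP-positive replicate 1 was the least like its own fraction (mean correlation 0.73, against 0.83 to 0.87). The 18 probe sets of the hybridisation spike-ins read higher in the GFP-positive member of 4 of 4 pairs, with mean log2 differences of 0.86 to 1.53. The ratio of 3' to 5' GAPDH signal, a measure of RNA integrity taken here after amplification, was higher in the GFP-positive member of 4 of 4 pairs. It ran from 31.3 to 99.95 on GFP-positive and from 18.2 to 75.4 on GFP-negative arrays. Among the latter the 75.4 was that of pair 1, and the others were 18.2 to 22.6. The ratio of 3' to middle GAPDH signal was lower in the GFP-positive member of pair 2 (3.35 against 3.76) and higher in that of the other pairs. The part of these ratios in the results was not tested. The gene behind the gate, itga2b, lay below the 40th percentile on all 8 arrays and differed by 0.29, too dim to check the labels of the fractions. The probe set for the fluorescent protein, also below that percentile on all 8 arrays, was higher by 1.09, in 4 of 4 pairs. It read 178 against 34.6 in pair 1 and 76.8 against 37.3 in pair 3. In pairs 2 and 4 it read 46.6 against 33.4 and 46.1 against 33.2. The spike-in range holds this difference of 1.09, and dim probe sets leaned above 0 as a class, so it is no check of the labels either. Of 6 tested thrombocyte markers 4 rose, among them the coagulation factor genes f5 (4.97) and f13a1b (2.30), and 1 fell. The marker that fell was thbs1b, by at least 2.25-fold (limma adjusted p = 0.018), and nfe2 (-0.38) did not pass. The marker gp1bb failed the filter on dim signals, as did itga2b. Leukocyte genes stood higher in the GFP-positive fraction (10 of 10 tested rose), and neural (12 of 14) and muscle genes (10 of 10) fell.

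The pair of core-binding factor genes ranked lowest on their arrays. The runx1 probe set (Dr.20968.1.S1_at) read 108, 128, 132 and 51.9 on the GFP-positive arrays of pairs 1 to 4, and 4.06, 77.9, 67.3 and 77.3 on the GFP-negative arrays. The fractions overlapped, since the GFP-positive array of pair 4 lay below 3 of the GFP-negative arrays. A single GFP-negative array, that of pair 1, was far below all others, at the 1.11th percentile of its array against 19.6 to 22.8 for the other 3. The fitted log2 difference was 1.46 (SE 0.84, n = 4 pairs, limma over all 15502 probe sets, adjusted p = 0.25), and the mean within-pair difference was 0.37 without pair 1. With all arrays below the percentile in both fractions, no fold is given.

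Cbfb, the non-DNA-binding partner, was also below the percentile throughout but less scattered. Its probe set (DrAffx.1.14.S1_at) read 154, 139.9, 112 and 131 on the GFP-positive arrays, and 24.5, 58.5, 54.2 and 67.6 on the GFP-negative arrays. Every GFP-positive value exceeded every GFP-negative value, and the within-pair log2 differences were 2.65, 1.26, 1.04 and 0.96. The mean log2 signal was 7.06 ± 0.19 (SD, n = 4) against 5.58 ± 0.66 (SD, n = 4), a difference of 1.48 (SE 0.51, limma over all 15502 probe sets, adjusted p = 0.078), which did not pass. The call depends on the processing, since it was made with no replicate block (adjusted p = 0.049), after median centring (adjusted p = 0.034) and with a pseudocount of 100 (adjusted p = 0.049).

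Dim probe sets in general leaned the same way, and both genes have to be read against that. Over the 3702 probe sets that lay below the 40th percentile on all 8 arrays, the median log2 difference was 0.43 and 68.6% were above 0. Of these dim probe sets, 13.2% had a larger difference than runx1 and 12.8% a larger one than cbfb. The GFP-positive arrays lay wholly above the GFP-negative arrays for 7.91% of them, the pattern seen for cbfb.

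**Figure D1:**
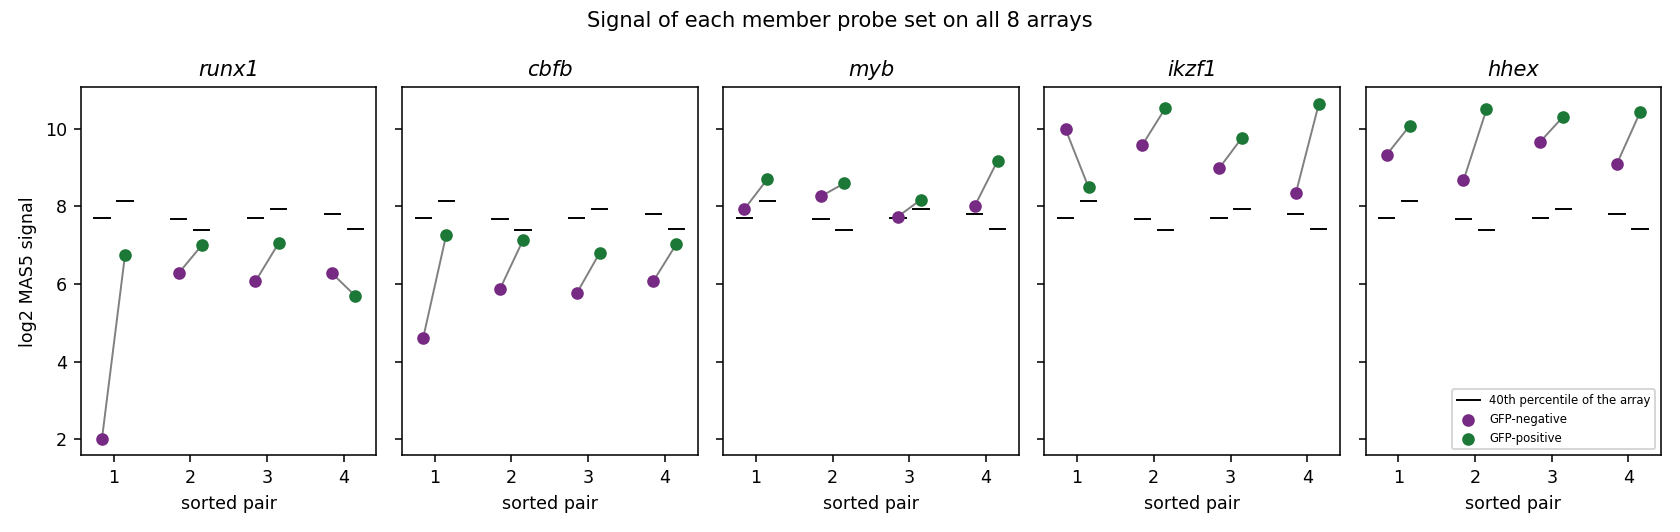
Log2 MAS5 signal (vertical axis) of the probe sets of runx1, cbfb, myb, ikzf1 and hhex in sorted pairs 1 to 4 (horizontal axis), with GFP-negative arrays in purple, GFP-positive arrays in green, a grey line joining each pair and a black bar at the 40th percentile of each array. The runx1 and cbfb points lie below the bars on all 8 arrays, the hhex lines rise in 4 of 4 pairs, and the ikzf1 line of pair 1 falls by 1.50.

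Myb, the transcription factor of blood progenitors, gave higher signals in the GFP-positive fraction by a margin that did not pass the test. Its probe set (Dr.8106.1.S1_at) read 417, 386, 289 and 579.9 on the GFP-positive arrays of pairs 1 to 4 and 244, 308, 213 and 257 on the GFP-negative arrays. The fractions overlapped only through pairs 2 and 3, where the highest GFP-negative array (308) exceeded the lowest GFP-positive array (289). The within-pair log2 differences were 0.77, 0.33, 0.44 and 1.18, so the direction was the same in 4 of 4 pairs and the size was largest in pair 4. Mean signals were 418 ± 121 (SD, n = 4) and 255 ± 39.2 (SD, n = 4). The fitted log2 difference was 0.68 (SE 0.32, 95% interval -0.09 to 1.45, limma adjusted p = 0.15), an interval that holds both no change and a change of more than 1 on the log2 scale.

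The myb transcript is also found in dividing cells outside the blood, and no list read here marks such cells alone. The proliferation markers do not set them apart from dividing blood cells, and the neural markers are not limited to dividing cells. Of 14 tested proliferation markers 5 fell and 0 rose, with a median of -1.12, and of 14 neural markers 12 fell and 0 rose. The summed signal of the neural markers was 2507 to 33758 on GFP-positive and 78082 to 100113 on GFP-negative arrays. In such sorted bulk RNA, fewer cells of a type and less RNA per cell cannot be told apart. The part of these cells in the myb signal was not tested.

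Among the 3 members that passed the filter, ikzf1 had the widest spread between pairs. The probe set (Dr.8122.1.S1_a_at, whose suffix marks probes shared by several transcripts of 1 gene) read 359.5, 1481, 875 and 1594 on the GFP-positive arrays and 1017, 766, 504 and 323 on the GFP-negative arrays. Pair 1 ran opposite to the others, with the lowest of the GFP-positive and the highest of the GFP-negative signals. The within-pair log2 differences were -1.50, 0.95, 0.80 and 2.30, and the fit gave 0.64 (SE 0.58, 95% interval -0.73 to 2.00, limma adjusted p = 0.43). Without pair 1 the difference was 1.35 and passed (adjusted p = 0.040), and without pair 4 it was 0.08 (adjusted p = 0.92), so 1 pair decides the value in either direction.

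The GFP-positive array of pair 1 is the one that was least like its fraction. The GFP-negative array of pair 1 was likewise the least like its own fraction (mean correlation 0.89, against 0.93 to 0.94). The part of either array in the ikzf1 value of that pair was not tested. In the same pair the 10 leukocyte genes were all higher, with a median log2 difference of 2.28, against 4.18 to 5.29 in the other pairs. The 5 tested lymphoid genes, ikzf1 among them, had a median of -0.43 in pair 1 and of 0.80 to 1.74 in the others. In pairs 2 and 3 that median was the ikzf1 value itself, so it is no separate comparison for ikzf1. In pair 1 runx3 (4.41) and blnk (0.34) were higher, and gata3 (-0.66) and tox (-0.43) lower. Their directions were the same in pair 4, at 4.42, 1.74, -2.73 and -1.90. In the lymphoid list runx3 and the B cell adaptor gene blnk (at least 2.08-fold, limma adjusted p = 0.033) rose, and gata3 fell by 1.52 (adjusted p = 0.045), whereas tox and ikzf1 did not pass. The part of cells outside the blood in the gata3 fall was not tested. Leaving out replicate 2 or 4 ended both the blnk and the gata3 call, leaving out replicate 3 that of blnk, and both were also lost with no replicate block.

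Hhex was the member whose fractions separated and whose difference passed. Its probe set (Dr.3269.1.S1_at) read 1081, 1448, 1272 and 1370.3 on the GFP-positive arrays and 645, 407, 813 and 549 on the GFP-negative arrays. The GFP-positive values were tightly grouped, with a mean log2 signal of 10.33 ± 0.18 (SD, n = 4), against 9.19 ± 0.42 (SD, n = 4) in the GFP-negative fraction. The within-pair log2 differences were 0.75, 1.83, 0.65 and 1.32, higher in 4 of 4 pairs. The fitted difference was 1.14 (SE 0.31, 95% interval 0.40 to 1.87, limma adjusted p = 0.032), a 2.197-fold higher signal.

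That call did not hold in every fit with a pair left out, and each such fit has fewer arrays. It was lost without pair 2 (0.90, limma adjusted p = 0.17), without pair 3 (1.298, adjusted p = 0.051) and without pair 4 (1.07, adjusted p = 0.12). Without pair 3 the difference was larger than in the full fit. The call was kept without pair 1 and under the 8 other settings. The spike-in differences given above (0.86 to 1.53) bracket that of hhex, and also those of runx1 (1.46) and cbfb (1.48). The differences of myb (0.68) and ikzf1 (0.64) lay below that range. The part of the spike-in shift in the value of hhex or of any other member was not tested. The call for 1 of 3 tested members stands beside 12.99% of all 9801 tested probe sets called higher, 18.4% called lower and 31.4% called in either direction. On all tested probe sets, 12.7% had a larger difference than hhex.

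Tested markers of other tissues that use hhex mostly fell or did not pass. Of 7 tested endothelial markers 3 fell and 0 rose, and their summed signal was 6203 to 24031 on GFP-positive and 15813 to 19228 on GFP-negative arrays. The marker with the highest mean signal, fli1, differed by 1.42, higher in 3 of 4 pairs (adjusted p = 0.067), and passed after median centring and without replicate 3. It made up 21203 of the highest sum. The venous transcription factor gene nr2f2 fell by 3.39 (adjusted p = 0.0043) and the vessel gene plvapb by 2.18 (adjusted p = 0.0077). Of 16 endoderm and liver markers on the array only 7 were tested. The liver and pancreas genes fabp10a, hnf4a, prox1a and pdx1 were among those that failed the filter. Of the 7 tested, 5 fell and 1 rose, with summed signals of 3302 to 12023 against 8325 to 18382. Among those that fell, pax2a is also in the list of pronephric markers. The gene that rose was the transferrin gene tfa, by 2.39 (adjusted p = 0.0027), while the endoderm factor foxa1 fell by 3.16 (adjusted p = 0.024), which did not hold once replicate 2 or 4 was left out. The part of these tissues in the hhex signal was not tested.

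Ranks within each array, which do not depend on the scaling, gave the same picture. The hhex probe set lay between percentiles 69.7 and 75.0 on GFP-positive and between 51.2 and 63.0 on GFP-negative arrays, a mean gain of 15.9 ± 6.67 percentile points (SD, n = 4 pairs). The cbfb ranks were also apart, at 22.5 to 35.9 against 10.3 to 18.4 (13.8 ± 5.36 points, SD, n = 4 pairs). Overlap was seen for myb, at 43.4 to 62.0 against 40.1 to 46.7 (9.67 ± 7.00 points, SD, n = 4 pairs).

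The remaining ranks were scattered more. For ikzf1 they ran from 45.8 to 76.8 on GFP-positive and from 46.6 to 64.9 on GFP-negative arrays (8.67 ± 20.5 points, SD, n = 4 pairs). For runx1 they ran from 18.2 to 33.9 and from 1.11 to 22.8 (8.66 ± 9.11 points, SD, n = 4 pairs). Fractions that did not overlap with the GFP-positive one above were thus seen for 2 of 5 members, beside 13.04% of all 15502 probe sets, and neither dim member passed, beside 8.90% of those probe sets called higher. A higher signal in 4 of 4 pairs was seen for 3 of 5, beside 22.1% of all probe sets.

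**Figure D2:**
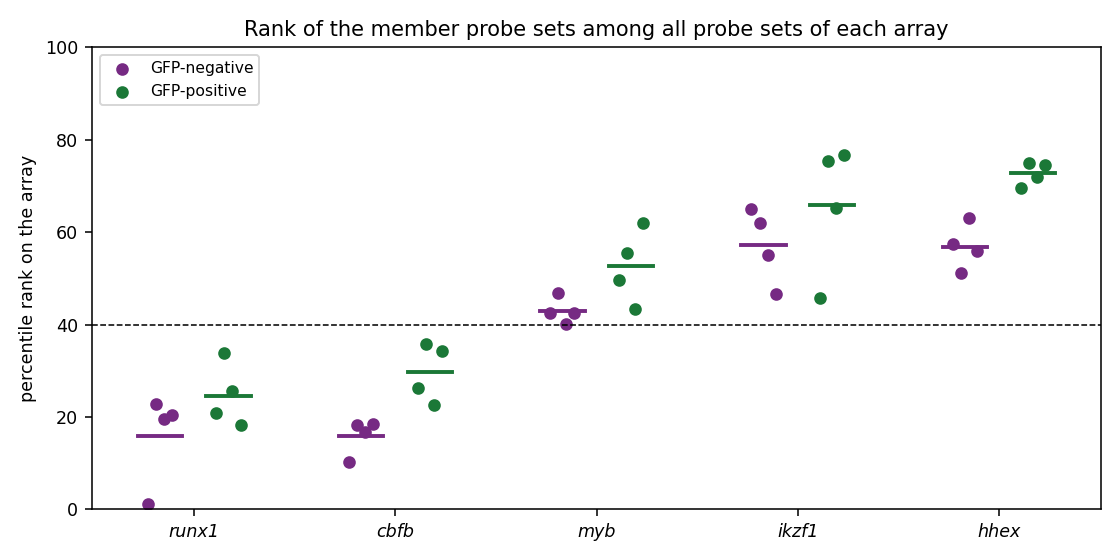
Percentile rank of each member probe set among the probe sets of its array (vertical axis, 0 to 100) for the 4 GFP-negative (purple) and 4 GFP-positive (green) arrays, with bars at the means and a dashed line at the 40th percentile. The hhex and cbfb fractions do not overlap, and the ikzf1 points overlap, from 45.8 to 76.8 on GFP-positive and from 46.6 to 64.9 on GFP-negative arrays.

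Relatives of these genes were read on the same arrays. Of the core-binding factor genes and their corepressor partners, 5 of the 11 on the array were tested, of which 1 rose and 2 fell. The gene that rose was runx3, another DNA-binding subunit of core-binding factor, with signals of 1548 to 8421 on GFP-positive and 209.9 to 397 on GFP-negative arrays. Its log2 difference was 3.97 (SE 0.35, limma adjusted p = 0.0011), a 15.7-fold rise, and the call was kept under all 12 alternatives. The other runx3 probe set, below the percentile on all GFP-negative arrays, was at least 1.58-fold higher (limma over all 15502 probe sets, adjusted p = 0.0077). For runx1 and runx3 the difference between their changes was not tested.

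Tle2a and tle3b encode Groucho corepressors, which bind Runx proteins among others. The tle2a signal fell by 3.72 (SE 0.70, limma adjusted p = 0.0099) and that of tle3b by 2.10 (SE 0.42, adjusted p = 0.012). Other tle3b probe sets, below the percentile on all GFP-negative arrays, did not pass (limma without the filter, adjusted p = 0.16 and 0.81). The first of these ran opposite to the fall, with a log2 difference of 0.88, higher in 4 of 4 pairs. It read 185 to 277 on GFP-positive and 112 to 148 on GFP-negative arrays, without overlap. The second differed by -0.30. The deacetylase genes hdac1 (-0.56, adjusted p = 0.31) and hdac3 (-0.40, adjusted p = 0.26) did not pass either. The probe sets of runx2a and runx2b failed the filter on dim signals, as did those of runx1t1 and tle3a.

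In the Myb family and its coactivators 6 genes were tested, myb included, and 0 passed with limma. On the probe set that stood for each gene, the estimates of myb and of the other 5 genes had opposite signs. Mybl2b, which acts in the cell cycle, differed by -0.84 (SE 0.29, adjusted p = 0.069) and was lower in 4 of 4 pairs. Mybl1 differed by -1.20 (SE 0.39, adjusted p = 0.055), and mybl2a by -0.45 (adjusted p = 0.28). The CREB-binding protein genes crebbpa and crebbpb, whose products are coactivators of Myb, differed by -0.54 and -0.53 (adjusted p = 0.23 and 0.18). Without replicate 1 mybl1 and mybl2b passed as falls, and so did mybl1 with a pseudocount of 100. In the Ikaros family ikzf5 was the other tested gene and differed by -0.28 (SE 0.46, adjusted p = 0.68), with estimates of -0.72 without pair 1 and 0.23 without pair 4.

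**Figure D3:**
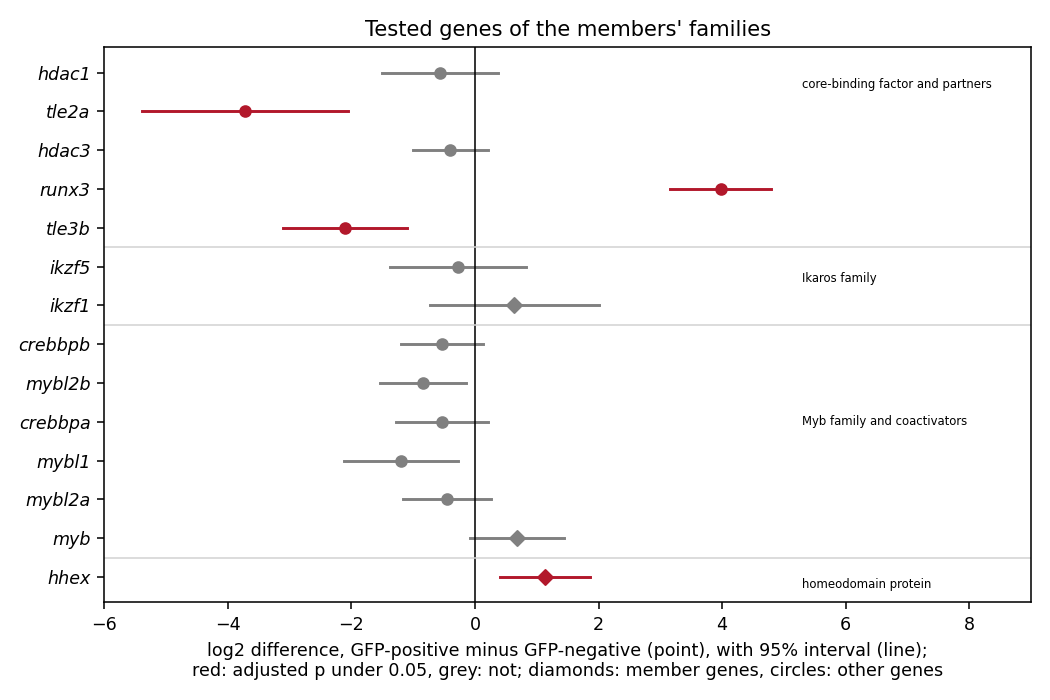
Log2 difference between GFP-positive and GFP-negative arrays (horizontal axis) with its 95% interval for the tested genes of the core-binding factor, Ikaros and Myb lists and for hhex (vertical axis), in red where the adjusted p was under 0.05 and in grey otherwise, with diamonds for member genes. Hhex (1.14) and runx3 (3.97) lie to the right in red, and tle2a (-3.72) and tle3b (-2.10) to the left.

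Genes that act upstream of runx1 and myb in the aorta were mostly lower in the GFP-positive than in the GFP-negative fraction. This list held 29 genes, of which 23 were on the array and 17 were tested. Of the 17 tested 11 fell and 1 rose, with a median of -1.49 beside -0.18 over all tested probe sets. Of its genes, fli1 and erg are also among the endothelial markers. Erythroid markers moved with this list, as 8 of 11 tested fell and 0 rose, with a median of -1.75. So did neural (12 of 14 fell, median -3.62), muscle (10 of 10, median -5.09) and pronephric markers (5 of 5, median -3.59). The part of these cell types in the falls of the list was not tested. The erythroid markers with the highest signal did not pass, such as the globin gene hbae3 (0.77, limma adjusted p = 0.13). The erythroid factor genes klf1 and gata1a, chosen after their values were seen, differed by -1.67 and -1.62 (adjusted p = 0.014 and 0.0099). The partner genes tal1, lmo2 and ldb1a, whose products form 1 DNA-binding complex, fell, with log2 differences of -1.34, -1.04 and -1.69 (limma adjusted p = 0.018, 0.044 and 0.049). Gata2a fell by 1.49 (adjusted p = 0.020), the BMP effector gene smad5 by 2.05 (adjusted p = 0.011) and the homeodomain gene meis1b by 3.72 (adjusted p = 0.0062). The related gene gata2b, also in the list, was not on the array. The calls of lmo2 and ldb1a were each kept in 5 of 12 alternatives. Quantile normalization, cyclic loess and the fit with no variance trend ended both, median centring that of lmo2 and the fit with no replicate block that of ldb1a. The ETS factor gene etv6 rose by 1.58 (adjusted p = 0.034), and fli1, another ETS factor gene, differed by 1.42 (adjusted p = 0.067). Without replicate 2 or 4 the calls of tal1, lmo2, ldb1a, gata2a and etv6 were lost, without replicate 3 those of lmo2, ldb1a and etv6, and without replicate 4 that of smad5, and the list then held 3 to 12 falls.

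Leukocyte genes, several of them known targets of Runx1 or Myb, gave the opposite picture. All 10 tested genes of the list rose, with a median of 3.84. Spi1b, the gene of the myeloid factor Pu.1, rose by 5.08 (limma adjusted p = 0.00064) and cebpa, another myeloid factor, by 4.06 (adjusted p = 0.0024). The phagocyte genes lyz and mpx rose by 2.57 and 3.89, and the actin regulators coro1a, wasb and lcp1 by 4.61, 3.62 and 3.60, of which lcp1 lost its call without replicate 4. The summed signal of this list was 206158 to 359650 on GFP-positive and 20026 to 51684 on GFP-negative arrays. The differences of the 3 tested members were from 0.64 to 1.14 in the same samples, and of these only hhex passed. Those of runx1 and cbfb, below the percentile on all 8 arrays, were 1.46 and 1.48.

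The genes whose log2 signals over the 8 arrays were most like those of the tested members were picked by Pearson correlation among 6541 symbols, as a description. They share the arrays and the split into fractions with the members. For hhex the 5 closest were sptlc2a (r = 0.98), a subunit gene of the enzyme that starts sphingolipid synthesis, hnrnpa0b (r = 0.98), mrps18a (r = 0.97), lrrfip1a (r = 0.97) and pdlim5b (r = 0.96). Of these, 4 had larger differences than hhex, with rises of 2.07 for sptlc2a, 2.49 for hnrnpa0b, 3.31 for lrrfip1a and 1.86 for pdlim5b, while mrps18a differed by 0.72 and did not pass (adjusted p = 0.088).

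For myb the closest were the glutathione-degrading enzyme gene chac1 (r = 0.96), the Janus kinase gene jak2b (r = 0.95), clec16a (r = 0.95), the endosomal sorting gene chmp2a (r = 0.95) and the glyoxalase gene glo1 (r = 0.93). Of these, chac1 rose by 1.25 (limma adjusted p = 0.026) and glo1 by 1.295 (adjusted p = 0.018), calls that were lost without replicate 2, 3 or 4. For ikzf1 they were preb (r = 0.99), wu:fc18f10 (r = 0.97), the copper transporter gene slc31a1 (r = 0.96), ufsp2 (r = 0.96) and the methionine sulfoxide reductase gene msraa (r = 0.96). As with ikzf1 itself, 3 of 4 pairs were higher for each of these, and their differences of 0.33 to 0.88 did not pass (adjusted p = 0.44 to 0.61).

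**Figure D4:**
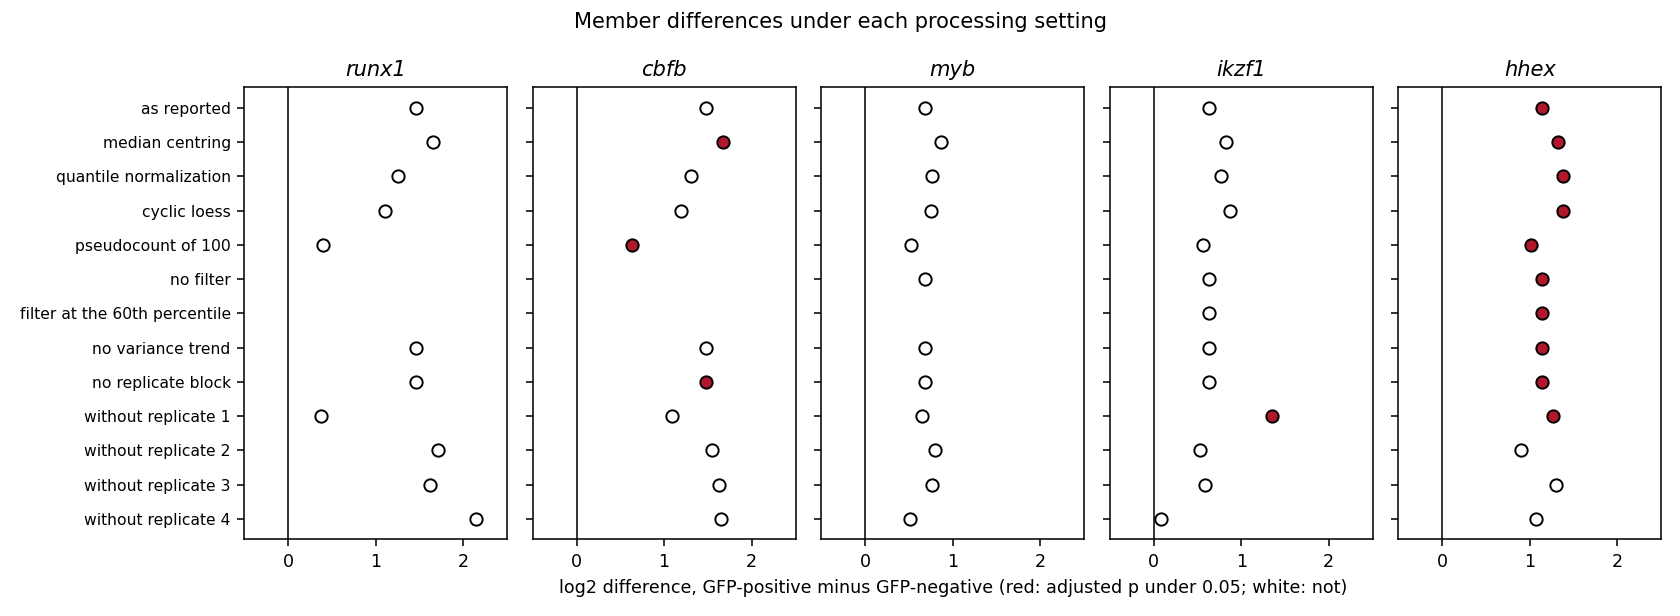
Log2 difference between GFP-positive and GFP-negative arrays (horizontal axis) of each member gene as reported and under each alternative setting (vertical axis), with red points for an adjusted p under 0.05 and white points otherwise; a missing point was not tested under that filter. All points lie right of 0, hhex is red except without replicate 2, 3 or 4, and ikzf1 runs from 0.08 to 1.35.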

How the data were processed

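The deposited intensity values are linear MAS5 signals, made by the authors per the submitters' processing notes, with the version not given in the sources used here. Every value was above 0, with near-equal means per array after trimming 2 percent at each end (1500.26 to 1500.47), and no further scaling was applied. Detection calls were not used here.

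The test was that of limma 3.58.1 under R 4.3.3, two-sided, on log2 signals without a pseudocount (lmFit, then eBayes with a trend), with Benjamini-Hochberg adjustment over all tested probe sets and a threshold of 0.05. Of 15617 probe sets, 115 were controls. The 9801 probe sets above the 40th percentile of their array on at least 4 of 8 arrays were tested. Members that failed this filter (2 of 5) were fitted without it, over 15502 probe sets. Differences are GFP-positive minus GFP-negative. The replicate number was a block, since the design text says that the fractions were paired. The correlations of deviations from the group means within pairs 1 to 4 were 0.40, 0.26, 0.18 and -0.12, and in pairs 3 and 4 the array of 1 fraction matched another pair better than its own, so the pairing of both rests on that text.

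Symbols came from the platform annotation, updated by gene identifier (10802 probe sets had 1 symbol, 135 several and 4680 none). Where a listed gene had more than 1 tested probe set, that of the highest mean log2 signal stood for it. A gene below the percentile on at least 2 arrays of its lower fraction has its fold given as "at least", against the higher of the percentile and the signal on each array. Named list genes were the 8 (pathway lists) or up to 3 (marker lists) with the highest mean signal, and not all are printed. The members and lists were chosen with earlier results of these data known. The fitting code was tested on simulated data. The number of arrays limits the precision. Alternatives were other scalings, filters, a pseudocount, no variance trend, no replicate block, and each pair left out.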

Additional observations from a re-analysis of the deposited data

Results flagged for a closer look

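The GFP-negative array of pair 1 gave a log2 signal of 2.02 for runx1, a linear signal of 4.06. It stood apart from the other 3 GFP-negative arrays by 0.95 of the range of the group, above the critical value of Dixon's test for 4 samples, and it was the only one of 10 groups of member signals to do so, where chance gives about 1 in 20. The runx1 difference was 0.37 without that pair. The same array had the highest ratio of 3' to 5' GAPDH signal of the GFP-negative arrays (75.4, against 18.2 to 22.6). Its median log2 signal of the spike-ins was the lowest (9.61, against 11.7 to 12.4), and it gave the lowest cbfb signal (24.5). The part of these traits of the array in the runx1 and cbfb values was not tested.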

How the results depend on the processing

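No member changed sign under any alternative. With pairs left out in turn, hhex ran from 0.90 to 1.298 and ikzf1 from 0.082 to 1.35. Cbfb passed after median centring (1.67), with a pseudocount of 100 (0.64) and with no replicate block (1.48); no other member's call changed with the block. Runx1 and cbfb, reported from the fit without the filter, have no separate values for the filter settings, and myb failed the 60th percentile filter. Median centring moved the median of all tested probe sets from -0.18 to 0.0077. With pairs left out, 646 to 1466 probe sets were called higher and 659 to 2027 lower, fewest without replicate 4. Falls in the lists then ran from 3 to 12 (upstream), 0 to 2 (Myb), 2 to 5 (endoderm; pronephric likewise), 3 to 7 (proliferation), 0 to 1 (lymphoid) and 0 to 1 (thrombocyte), and rises from 0 to 1 (Ikaros, endothelial and upstream) and 1 to 3 (lymphoid). Under quantile normalization the lymphoid list had 1 rise and 0 falls, as it did with no replicate block and the 60th percentile filter (which also left 0 thrombocyte falls), and cyclic loess left it 0 falls. Quantile normalization gave 8 proliferation falls, median centring 2 upstream, 1 endothelial and 1 erythroid rises, and the pseudocount 1 Myb fall. Without pairs, reversals of genes that did not pass were hbbe3 (-0.10 to 0.62, also -0.41 by quantile normalization and -0.064 by cyclic loess), ikzf5 (-0.72 to 0.23), msraa (-0.22 to 1.83), tox (-0.81 to 0.088) and wu:fc18f10 (-0.081 to 1.03). The cause was not tested.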

Other observations

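Some further genes tied to these regulators, chosen after their values were seen, lay below the filter on dim signals. The macrophage receptor gene csf1ra read 36.0 to 1002 on GFP-positive and 8.17 to 20.0 on GFP-negative arrays, was above the 40th percentile on 3 of 4 GFP-positive arrays and was at least 1.202-fold higher (limma over all 15502 probe sets, adjusted p = 0.0089). The recombinase gene rag2 read 88.8 to 201 and 24.3 to 37.0, higher in 4 of 4 pairs. Its log2 difference was 2.17 (SE 0.55, limma adjusted p = 0.026), but only 1 of the 8 arrays lay above the percentile. The other lymphoid genes below the filter did not pass. These were rag1 (0.82, limma adjusted p = 0.20) and pax5 (-0.64 and -0.34 on its probe sets, adjusted p = 0.40 and 0.68). Without the filter, 8.90% of all 15502 probe sets were called higher. The chemokine receptor gene cxcr4b, which passed the filter, rose by 2.43 (SE 0.29, limma adjusted p = 0.0030), with signals of 2159 to 3777 and 514 to 641.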
